A study of Homo sapiens with 18 samples.

Results

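The transcripts of the translation initiation factors were followed in MSTO-211H cells, a human cell line derived from a mesothelioma, either left untreated or exposed to piroxicam (P), to cisplatin (C) or to the 2 together (P/C). Members were the probe sets of the HGU133A array whose single gene symbol in the platform annotation began with EIF followed by a digit from 1 to 6. This rule gave 39 of the 11963 genes that have a probe set of a single symbol, measured by 81 of the 22283 probe sets, after the 5 probe sets of the EIF2AK kinases and 2 on chromosome Y were left out. Another 8 probe sets listed several symbols with an initiation factor among them and were not named. The choice of members used no measured value.

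Piroxicam, a non steroidal anti-inflammatory drug, was given at 760 µM and cisplatin, a platinum compound that binds DNA, at 4.5 µg/mL, for 8 h or 24 h, and the control cells of each time received no drug. The 18 arrays fell into 8 groups. At 8 h the untreated, P, C and P/C groups had 2 arrays each, and at 24 h the untreated and P/C groups had 2 and the P and C groups 3. The replicates are called biological in the study, but no label says that they came from separate cultures, so the p-values measure only the spread between these arrays. All groups are one established line in culture, and in bulk RNA fewer cells of a type cannot be told apart from less RNA per cell. Of 11 mesothelial and mesothelioma markers on the array, KRT8, KRT18 and VIM reached a signal of 100 on all arrays and the other 8, CALB2, WT1 and MSLN among them, on none. None of 5 leukocyte and erythroid or 5 endothelial and stromal markers reached it.

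Translation begins when the small ribosomal subunit, carrying initiator tRNA brought by eIF2, is recruited to the capped end of an mRNA and scans to a start codon. The cap is bound by eIF4E, which joins the scaffold eIF4G and the helicase eIF4A as eIF4F, and the 4E-BP proteins compete for eIF4E. The factors eIF1, eIF1A and eIF5 govern start codon choice and GTP hydrolysis by eIF2, and eIF5B then joins the large subunit. The step at eIF2 is a common point of control, since stress kinases phosphorylate its alpha subunit, encoded by EIF2S1, and thereby block its exchange factor eIF2B.

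Values are log2 GCRMA signals, and differences between groups are log2 fold changes with the standard error (SE) of the limma fit. A probe set was called where its Benjamini-Hochberg adjusted p was at most 0.05 and its log2 fold change at least 1 in size. Of the 81 members, 44 probe sets for 25 genes passed the filter on dim and steady probe sets and were tested among 3057. Of the other 37, 23 were dim. The other 14 were bright but steady, with signals of 8.23 to 11.02 over all arrays and log2 fold changes against untreated cells of at most 0.48 in size. The steady ones measured EIF2B2, EIF2S1, EIF2S2, EIF3B, EIF3F, EIF3H, EIF3K, EIF3L, EIF4G1, EIF4G2, EIF4H and EIF6. For 14 of the 39 genes no probe set passed. Of the dim ones, EIF5B 214314_s_at alone was called when no filter was used, with −2.08 after P and −1.91 after P/C at 24 h.

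The arrays had median signals of 2.72 to 2.83, and 15.0% to 16.8% of the probe sets reached 100. The P/C arrays at 24 h stood apart from each other. Over the 58 probe sets called for piroxicam at 8 h, the mean difference from untreated cells, signed by the direction at 8 h, was 0.45 on P/C replicate 1 and 1.30 on P/C replicate 3. The P arrays at 24 h had 1.49 to 1.52 and the C arrays 0.34 to 0.39. Results for P/C at 24 h are therefore given with each array. Every group but P and C at 24 h keeps a single array when one of its arrays is left out. A call made in such a fit takes its spread from the other groups.

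After 24 h of P, 9 probe sets of 6 initiation factor genes fell and none rose past the limits. These were EIF1AX, EIF5, EIF5B, EIF2S1, EIF3J and EIF4E. The 9 made up 20.5% of the tested members, where 349 of all tested probe sets, 11.4%, were called lower and 3.14% higher. Across all 81 members the median log2 fold change was −0.11, beside 0.029 over all probe sets on the array. Median centring adds 0.21 to every probe set in this contrast, so that these medians become 0.099 and 0.239. The 44 tested members had a median of −0.02, beside −0.22 over all tested probe sets. Quantile normalization moved the latter to −0.058, so differences are also given below relative to the median of −0.22 where they lie near the limit. After P/C, 4 probe sets of 3 genes fell, beside 4.22% called lower and 2.65% higher among all tested. None of these 4 was called with array weights, with only the arrays of the comparison or with a replicate block among 24 h arrays, and without a filter 1 was. Over all tested probe sets those called lower after P/C were 129 in the main fit and 41 with array weights. They were 15 with only the arrays of the comparison and 1 with the block. After C no member was called, and 0% of the tested probe sets were. The comparisons with untreated cells at 24 h share the same 2 untreated arrays.

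**Figure D1:**
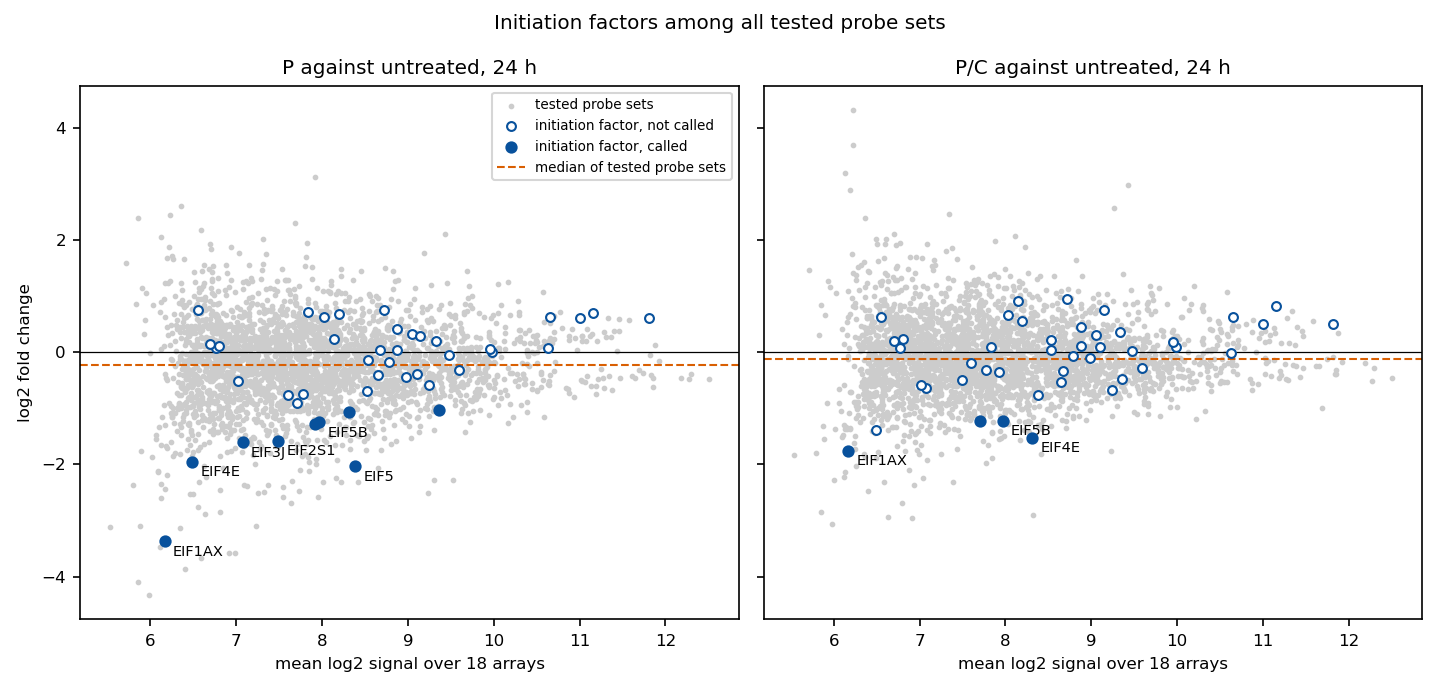
Log2 fold change against untreated cells at 24 h (y axis) against mean log2 signal over the 18 arrays (x axis) for all 3057 tested probe sets (grey) and for initiation factors (blue, filled where called); each named gene is labelled once and the dashed line is the median of the tested probe sets. The called initiation factors lie below the line in both panels, EIF1AX lowest at −3.37 after P and −1.75 after P/C.

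The largest fall of a single probe set was in EIF1AX, which encodes eIF1A, the factor that sits in the decoding site of the scanning subunit. Probe set 201018_at read 6.76 and 7.36 on the untreated arrays at 24 h and 3.88, 3.28 and 3.91 after P. It read 6.49, 6.25 and 6.43 after C, and 6.14 and 4.47 after P/C. All P arrays lay below all others at 24 h, and P/C replicate 3 came closest to them. The log2 fold change was −3.37 (SE 0.40) after P, with an adjusted p of 9.9e-05, and −1.75 (SE 0.43) after P/C, with an adjusted p of 0.0256. The P call held under all 30 alternative settings in which the probe set was tested. This probe set is the dimmest of the 4 tested for the gene. It reached a signal of 100 on 6 of the 18 arrays, the untreated ones and those of C at 8 h, so it passed the filter through the groups in which it was high and the P arrays at 24 h lay under that signal. The other 3 had smaller values after P, −0.58 on 201019_s_at, the brightest, −0.41 on 201016_at and −0.76 on 201017_at, and none was called. The P/C call was lost without untreated replicate 2 (adjusted p 0.234) or without P/C replicate 3 (−0.92, adjusted p 0.184), and without P/C replicate 1 the value was −2.59.

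EIF5 encodes the protein that activates the GTPase of eIF2 at the start codon. Its probe set 208706_s_at read 8.68 and 8.94 in untreated cells and 6.35, 7.26 and 6.74 after P at 24 h. The C arrays were at 8.67, 8.79 and 8.89 and the P/C arrays at 8.86 and 7.24. The P arrays and P/C replicate 3 were thus low, while P/C replicate 1 lay among the untreated and C arrays. The log2 fold change after P was −2.03 (SE 0.36, adjusted p 0.0013), and after P/C it was −0.76 (adjusted p 0.205). Without P/C replicate 1, which leaves a single P/C array, the P/C value was −1.57, and that of 208705_s_at was −1.02. The brighter probe set 208705_s_at also fell after P, by 1.03 on the log2 scale (SE 0.28, adjusted p 0.014), which is −0.81 relative to the median of the tested probe sets. That call was lost without untreated replicate 2 (−0.77, adjusted p 0.177) and without P replicate 1 (−0.91), under quantile normalization (−0.90) and median centring (−0.82), and with a replicate block over all arrays or the 24 h arrays (−0.92 in both). The other tested probe sets, 208290_s_at and 208708_x_at, had −0.69 and −0.38 and were not called. Without untreated replicate 1, which leaves a single untreated array at 24 h, 208290_s_at had −1.13.

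EIF2S1 encodes the alpha subunit of eIF2. On probe set 201143_s_at the untreated arrays read 7.74 and 7.85 and the P arrays 6.24, 6.14 and 6.28. After C it read 7.65, 7.91 and 7.87, and after P/C 7.73 and 6.86. The P arrays lay in a narrow band under all other 24 h arrays. None of them reached a signal of 100 on this probe set, which 15 of the 18 arrays did. The log2 fold change after P was −1.58 (SE 0.23, adjusted p 0.00049), and 201142_at gave −1.27 (SE 0.24, adjusted p 0.0019). Both calls held under all 31 alternatives. After P/C these probe sets had −0.50 and −0.35, with adjusted p of 0.189 and 0.396. The third probe set of this gene, 201144_s_at, read 9.61 to 10.03 over all 18 arrays and did not pass the filter on steady probe sets.

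EIF3J encodes a loosely bound subunit of eIF3, the large complex that holds the scanning subunit on the mRNA. Probe set 208264_s_at read 7.37 and 7.45 in untreated cells and 6.33, 5.54 and 5.54 after P at 24 h. C gave 7.33, 6.75 and 7.17, and P/C 6.61 and 6.95. The P arrays again lay below all others. None of them reached a signal of 100, which 13 of the 18 arrays did. The log2 fold change after P was −1.60 (SE 0.33, adjusted p 0.0031), a call that held under all 31 alternatives, and after P/C it was −0.63 (adjusted p 0.257).

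Where arrays are said to lie below or above other groups, at either time, the share of tested probe sets doing so was not counted. The comparisons with untreated cells at 24 h all use the same untreated arrays. The median of all tested probe sets was also lower, by −0.22 after P, −0.10 after C and −0.12 after P/C. EIF4E, the cap-binding protein, had 3 tested probe sets. On 201437_s_at the untreated arrays read 8.77 and 8.75, the P arrays 7.82, 7.68 and 7.58, the C arrays 8.34, 7.58 and 7.74, and the P/C arrays 7.07 and 7.41. Every treated array lay below both untreated ones. The log2 fold change was −1.07 (SE 0.37, adjusted p 0.0417) after P, which is −0.85 relative to the median of the tested probe sets, and −1.53 (SE 0.41, adjusted p 0.0319) after P/C. After C it was −0.88 (SE 0.37, adjusted p 0.315), which was not called.

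The other EIF4E probe sets had the same sign in all 3 treatments. The dimmest, 201436_at, fell after P from 7.22 and 7.25 to 5.23, 5.11 and 5.52, which is −1.95 on the log2 scale (SE 0.50, adjusted p 0.0103). It reached a signal of 100 on 9 of the 18 arrays and on none of P at 24 h. The values were −1.30 after C and −1.38 after P/C, neither called. On 201435_s_at the P/C arrays read 6.24 and 7.31 against 7.85 and 8.15 untreated, a fall of −1.22 (SE 0.33, adjusted p 0.0326), while P gave −0.91 with an adjusted p of 0.0347, under the fold limit, or −1.01 without P replicate 1, which was called. These calls rested on few arrays. Without untreated replicate 1 or 2 the adjusted p of 201436_at after P was 0.0513 or 0.0775. The P call of 201437_s_at was lost without either untreated array, any one of the P arrays or C replicate 3 (adjusted p from just above the limit to 0.169). It was also lost without a filter (0.123), with the intensity filter alone (0.055), under quantile normalization (−0.89) and under median centring (−0.86). Both P/C calls were lost without either untreated array or P/C replicate 1, and that of 201437_s_at also without P/C replicate 3 (adjusted p over these, 0.0551 to 0.241). Without P/C replicate 1, 201435_s_at had −0.69.

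EIF5B encodes the GTPase of subunit joining. Its probe set 201024_x_at read 9.14 and 8.42 in untreated cells, 7.42, 7.34 and 7.83 after P, 7.89, 7.65 and 7.27 after C, and 7.67 and 7.45 after P/C. All 8 treated arrays lay below the untreated ones, and the treatments overlapped with each other. The log2 fold changes were −1.25 (SE 0.26, adjusted p 0.0032) after P, −1.17 (SE 0.26, adjusted p 0.187) after C and −1.22 (SE 0.29, adjusted p 0.0214) after P/C. The suffix x marks a probe set whose probes can also match other transcripts. Without untreated replicate 1 the values were −0.89 after P (adjusted p 0.0552) and −0.86 after P/C (adjusted p 0.108), and the P/C call was also lost without untreated replicate 2 (0.0621) or P/C replicate 3 (0.0987).

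For C at 24 h, EIF5B 201024_x_at, EIF1AX 201019_s_at (−0.58, adjusted p 0.267) and EIF4E 201436_at had the smallest p. No member passed. C replicate 1 was the highest of the C arrays on EIF5B 201024_x_at and on all EIF4E probe sets. Without it, EIF5B had −1.32 (adjusted p 0.0104) and EIF4E 201436_at −1.80 (adjusted p 0.0395). Both were called, beside 81 of 3057 tested probe sets called lower. Whether the response of EIF4E or EIF5B differed between C and P was not tested.

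**Figure D2:**
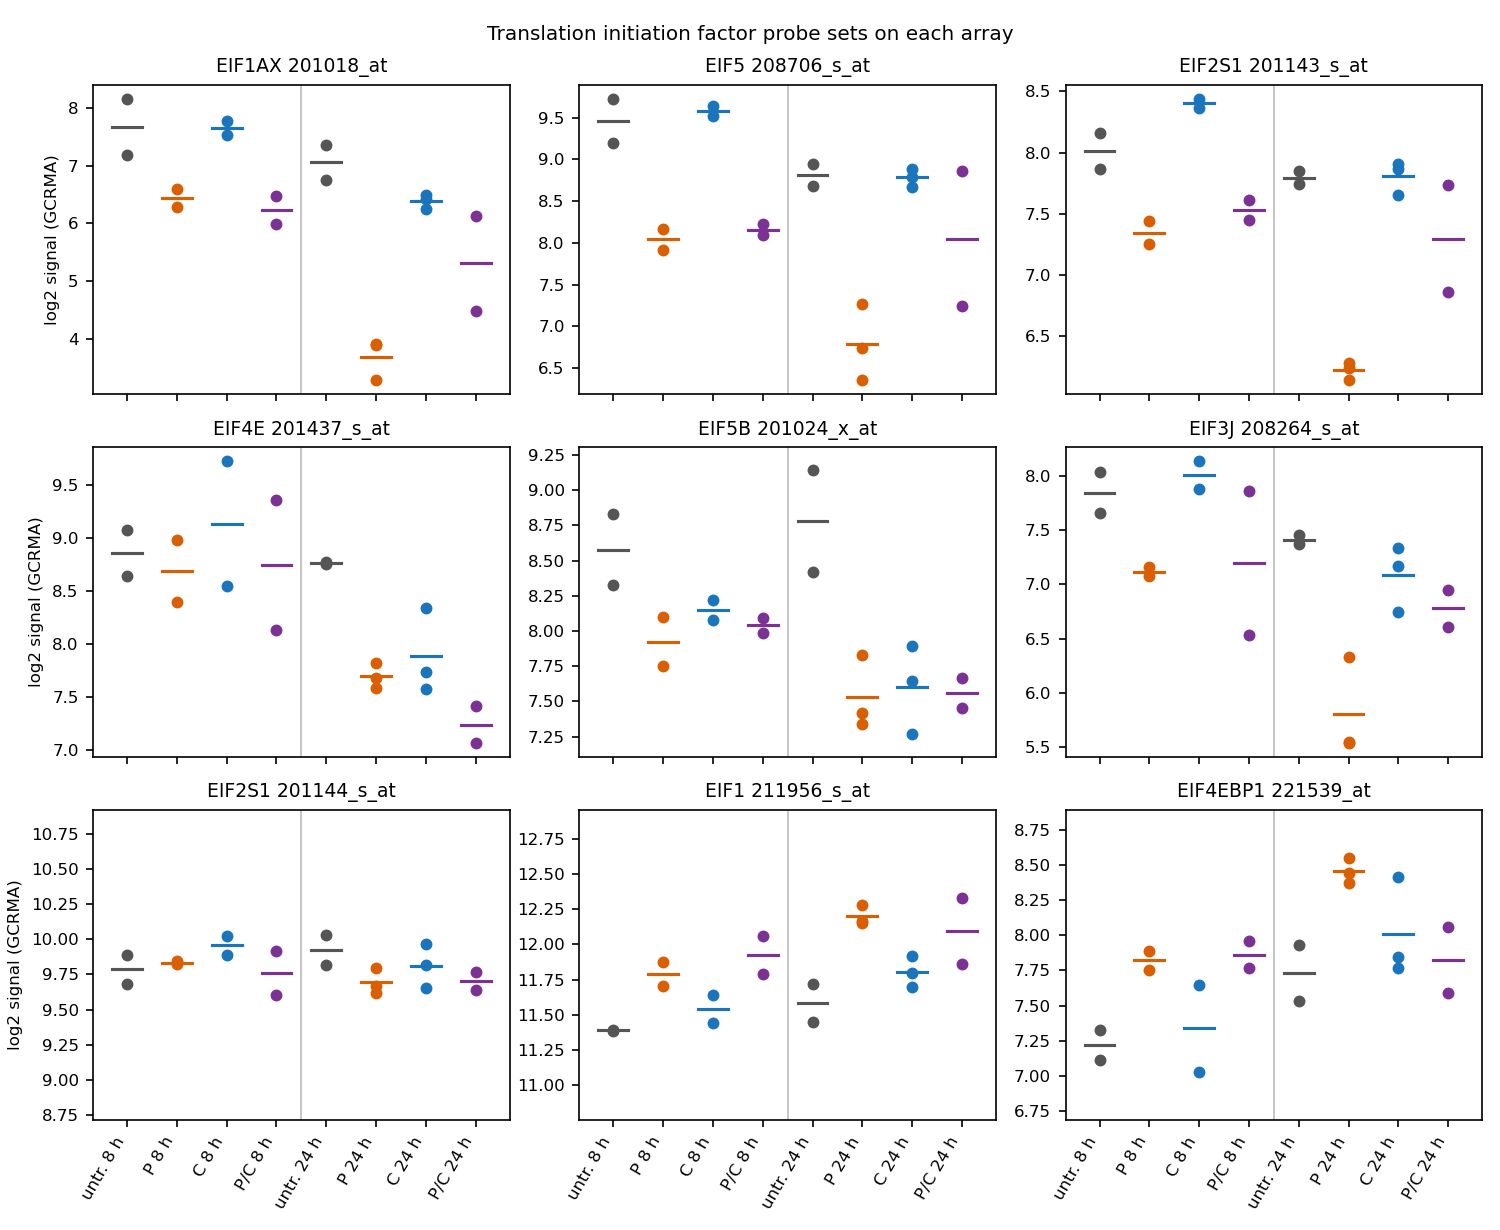
Log2 GCRMA signal (y axis, a separate scale for each panel) of 9 initiation factor probe sets on each of the 18 arrays, by treatment and time; points are arrays and bars group means. EIF1AX, EIF5 and EIF2S1 201143_s_at were low in P and P/C at 8 h and in P at 24 h, with the 2 P/C arrays at 24 h far apart. Every treated array at 24 h lay below both untreated ones on EIF1AX 201018_at, EIF3J 208264_s_at, EIF4E 201437_s_at and EIF5B 201024_x_at. The share of all tested probe sets with this pattern was not counted.

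The regions before the start sites of EIF4E and EIF5 are shown because these were the genes that fell with a match to a motif searched for. They are the 250 bases upstream in RefSeq on GRCh38.p14, written 5′ to 3′ along the gene, with motif matches in capitals. In EIF4E (chr4:98929134-98929383, minus strand) the capitals mark the E-box CACGTG, which begins 225 and 72 bases before the start, and a CCAAT box at 54. In EIF5 (chr14:103333987-103334236, plus strand) they mark CCAAT boxes at 109 and 77.
EIF4E: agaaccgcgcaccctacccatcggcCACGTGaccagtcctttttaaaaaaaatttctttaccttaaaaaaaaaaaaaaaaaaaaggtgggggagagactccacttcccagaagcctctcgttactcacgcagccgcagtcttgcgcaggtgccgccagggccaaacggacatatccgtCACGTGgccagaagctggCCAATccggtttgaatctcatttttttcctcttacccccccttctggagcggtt
EIF5: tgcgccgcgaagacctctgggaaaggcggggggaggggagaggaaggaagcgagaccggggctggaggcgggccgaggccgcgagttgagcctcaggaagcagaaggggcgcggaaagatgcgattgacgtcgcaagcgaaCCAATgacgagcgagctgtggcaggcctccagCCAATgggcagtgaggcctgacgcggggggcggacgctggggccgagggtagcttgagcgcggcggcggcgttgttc

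Of the 39 genes, 32 were found in the RefSeq promoter table. On either strand, CACGTG was present before 10 of the 32, and before 6.34% of all 35116 promoters. It is the letter sequence of the E-box read by MYC and related proteins. Of the 6 genes that fell, EIF4E alone held it. The palindromic NRF1 motif was found before 1 of the 32 and before 1.24% of all promoters. CCAAT was found before 13 of the 32, EIF4E and EIF5 among them, and in 32% of all. The ETS motif CCGGAAG was found before 6 of the 32, none of them a gene that fell, and in 8.52% of all. TGACGTCA, the cyclic AMP response element, TGATGNAA, bound by ATF4 and its partners, and TATAAA were found before none of the 32, and in 1.65%, 3.14% and 10.7% of all. None of these motifs was found before EIF1AX, EIF2S1, EIF3J or EIF5B. The motifs were chosen after the expression values were known, and a match is a description only.

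Probe sets of the same gene often gave different values. In a comparison added after the values were seen, each probe set bright enough was set against the brightest one of its gene, over 792 pairs in 595 genes, and the difference between their log2 fold changes was tested. After P at 24 h, 43 pairs, or 5.43%, differed, and 5 of the 24 member pairs did. EIF1AX 201018_at fell further than 201019_s_at by a difference of −2.80 (SE 0.48, adjusted p 0.0033). EIF2S1 201143_s_at and 201142_at differed from 201144_s_at by −1.34 (SE 0.18, adjusted p 0.0005) and −1.04 (SE 0.21, adjusted p 0.0078).

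EIF3J 208264_s_at differed from 208985_s_at, which read 8.54, 8.67 and 8.41 after P against 8.65 and 8.79 untreated, by −1.43 (SE 0.29, adjusted p 0.0073). EIF5B 201024_x_at differed from 201027_s_at by −1.10 (SE 0.27, adjusted p 0.0259). EIF5 208706_s_at fell short of the limit at −0.99 (SE 0.25, adjusted p 0.0303). In each of these pairs the dimmer probe set moved more. Over all 792 pairs the dimmer one had the lower value after P in 59.5%, and among the 24 member pairs in 13. After P/C, 1.52% of all pairs differed and 1 member pair did, EIF5B with −1.44 (SE 0.30, adjusted p 0.0235). EIF4E had no called pair, and its 3 probe sets fell or pointed down together.

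**Figure D3:**
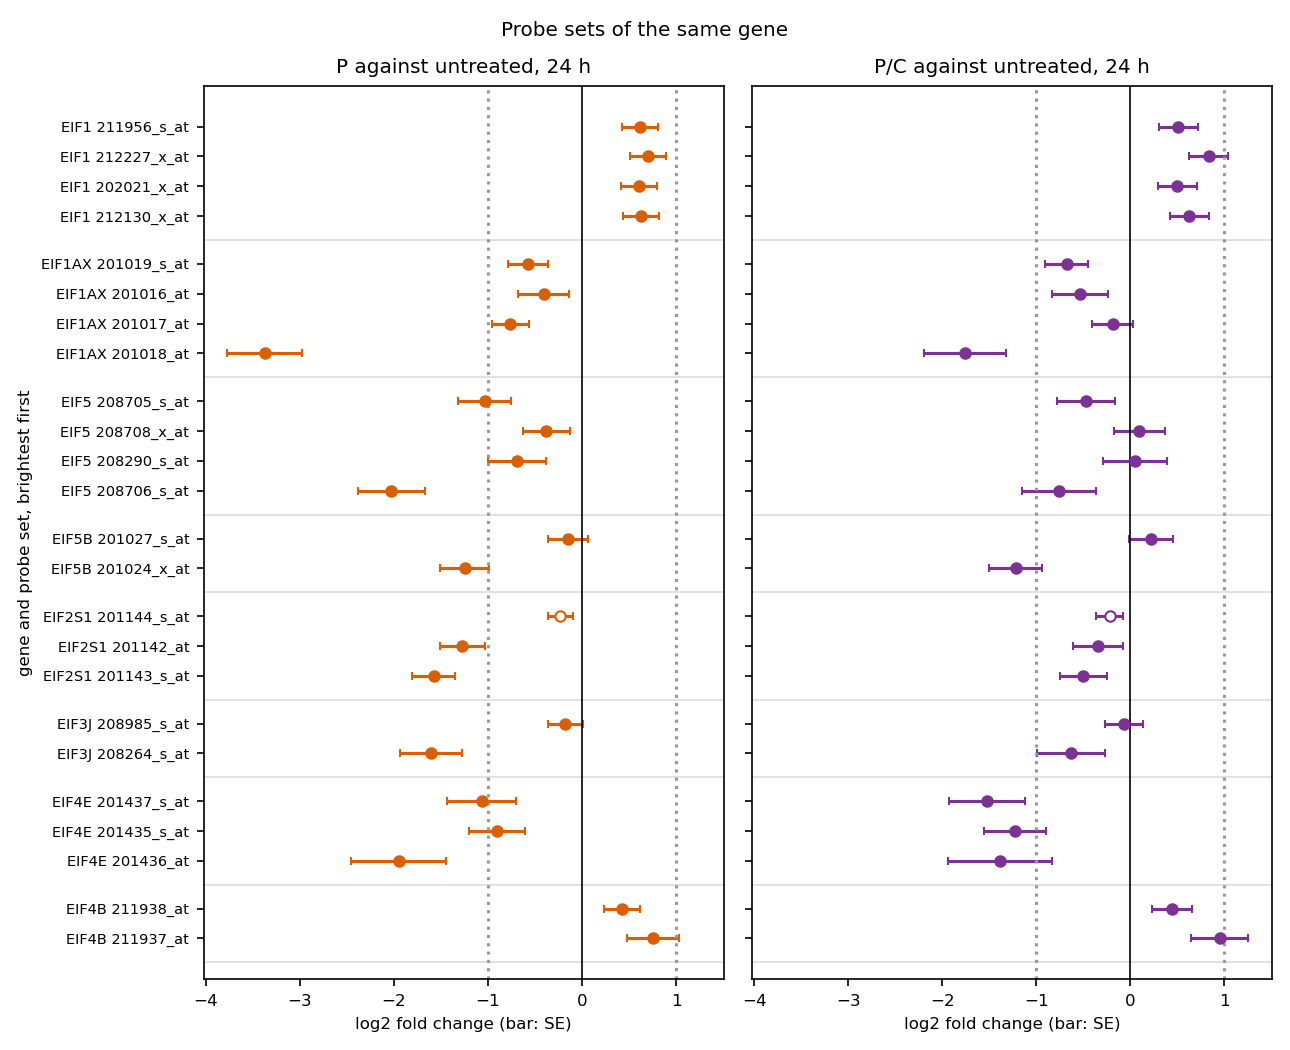
Log2 fold change (x axis, bars are SE) of each probe set that passed the signal filter, for 8 genes, after P (left) and P/C (right) against untreated cells at 24 h; within a gene the brightest probe set is on top, and the open circle is EIF2S1 201144_s_at, which was steady and is shown from the fit of all probe sets. In EIF1AX, EIF5B, EIF2S1 and EIF3J one or more dimmer probe sets lie beyond the dotted line at −1 after P while the brightest does not.

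No initiation factor rose past the limits after P or P/C, but EIF1 ran against EIF1AX and EIF5. EIF1 keeps the scanning subunit open until a start codon is met. Probe set 211956_s_at read 11.72 and 11.45 in untreated cells at 24 h and 12.28, 12.17 and 12.16 after P. It read 11.92, 11.70 and 11.80 after C, and 11.86 and 12.33 after P/C. All P and P/C arrays lay above the untreated ones. The 4 tested EIF1 probe sets had log2 fold changes of 0.61 to 0.70 after P, with adjusted p of 0.0129 to 0.0277, under the fold limit. After P/C they had 0.50 to 0.83, and 212227_x_at alone had an adjusted p within the limit, 0.026. Without P/C replicate 1, which leaves a single P/C array, 212227_x_at had 1.01. Of the 4 EIF1 probe sets 3 carry the suffix x. EIF1B, its close relative, had 0.68 after P (adjusted p 0.111), and 1.13 without untreated replicate 1, which leaves a single untreated array.

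EIF4EBP1 encodes the 4E-BP1 repressor of eIF4E. It read 7.93 and 7.53 in untreated cells and 8.44, 8.55 and 8.37 after P at 24 h. The C arrays were at 8.41, 7.77 and 7.85 and the P/C arrays at 7.59 and 8.06. The P arrays were above the untreated ones, by 0.72 on the log2 scale (SE 0.25, adjusted p 0.0394), while P/C overlapped with untreated cells (0.09, adjusted p 0.844). With the adjusted p alone and no fold limit, 5 members were higher and 12 lower after P, beside 5.95% and 22.4% of all tested probe sets.

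By role, 4 of the 15 tested probe sets of the start codon and joining group fell after P and 2 after P/C. Over all tested probe sets 11.4% were called lower after P and 4.22% after P/C. Several probe sets of a role measure the same gene. In eIF2, eIF2B and eIF2D 2 of 6 fell after P, both of EIF2S1. EIF2B1, the alpha subunit of the exchange factor, had −0.75 (adjusted p 0.0135), and EIF2S3, the gamma subunit, 0.63 (adjusted p 0.181). The bright probe set of EIF2S2, the beta subunit, was steady, with changes of at most 0.08 in size.

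In eIF3, 1 of 12 tested probe sets fell after P, beside 11.4% of all tested, and none after P/C. The 11 others lay between −0.32 and 0.33 after P. EIF3A, the largest scaffold subunit, had 0.92 (SE 0.28, adjusted p 0.0445) on 200596_s_at and 0.76 (adjusted p 0.0687) on 200595_s_at after P/C. On 200596_s_at the untreated arrays read 8.31 and 7.66 and the P/C arrays 9.02 and 8.79, so that both P/C arrays were higher. Under quantile normalization the first value was just past 1 with an adjusted p of 0.0296, which was called. Without untreated replicate 1, which leaves a single untreated array at 24 h, this value was 1.25. With each array left out it was 0.60 to 1.25.

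In cap binding and helicase factors the calls were all of EIF4E, 2 of 6 probe sets after P and 2 after P/C. EIF4B, which stimulates the helicase, had 0.75 after P and 0.95 after P/C on 211937_at, with adjusted p of 0.054 and 0.0562, and was called after P/C under quantile normalization and median centring (1.01 in both). EIF4A3, the helicase of the exon junction complex, had −0.43 after P (adjusted p 0.0945). Among eIF4E homologues and binding proteins, EIF4E2 had −0.51, −0.58 and −0.59 after P, C and P/C, none called. The 3 tested probe sets of EIF5A had 0.01 to 0.76 after P, none called.

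**Figure D4:**
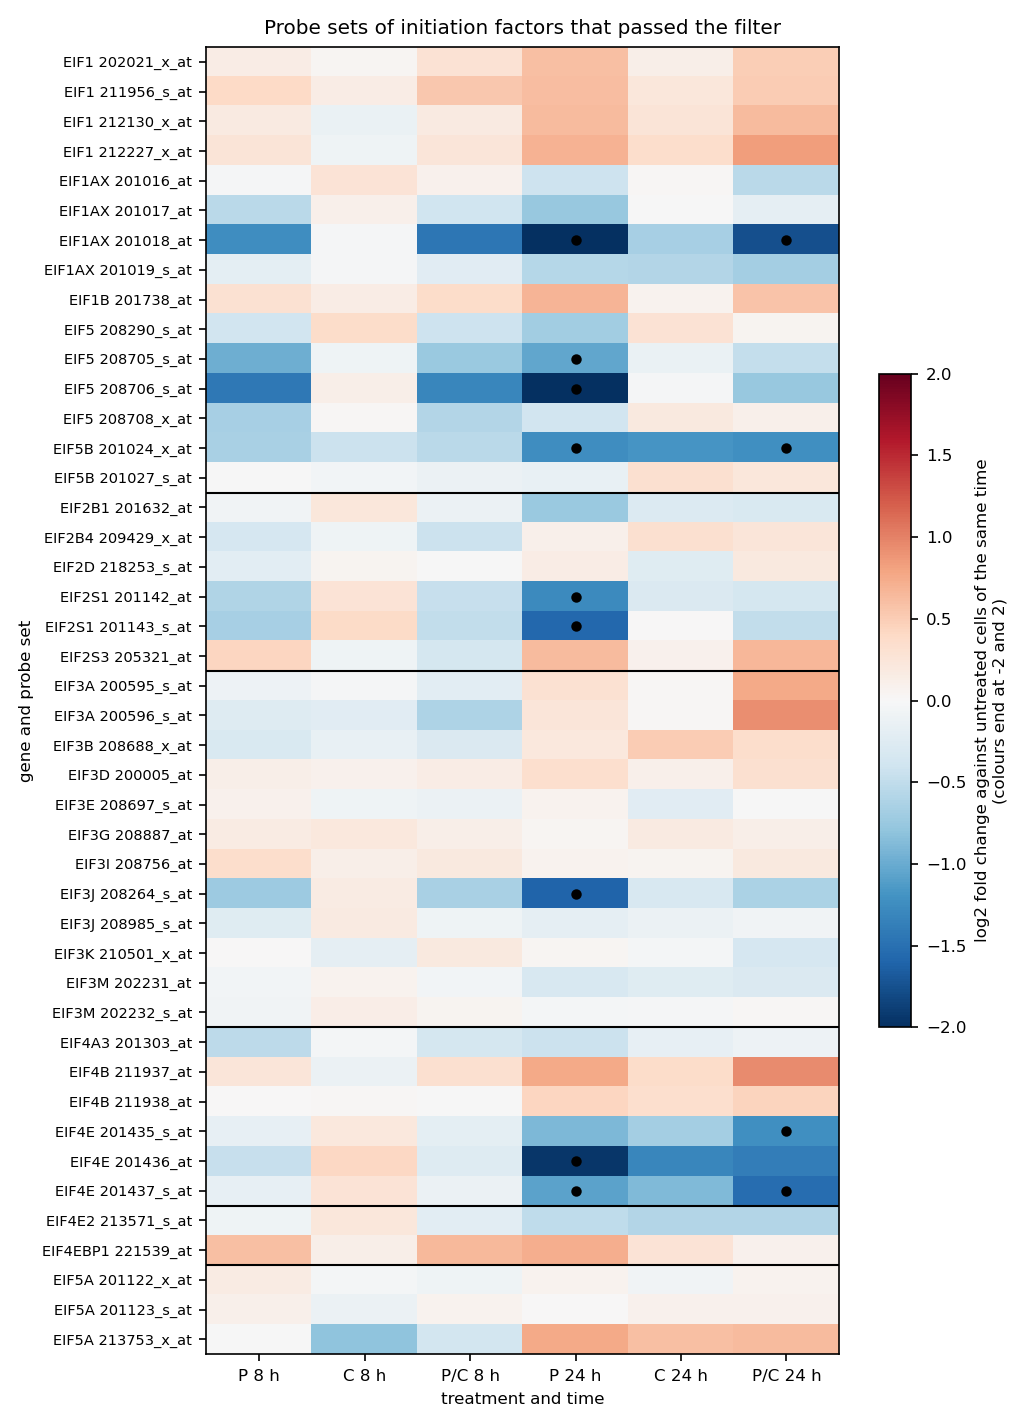
Log2 fold change against untreated cells of the same time (colour, ending at −2 and 2) for the 44 tested probe sets (rows, separated by lines into 6 role groups) in 6 comparisons (columns); a dot marks a called probe set. The 9 dots for P and the 4 for P/C at 24 h are all on falls, and the 8 h columns show no dot.

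At 8 h the question was how early the members moved. In the fit of all arrays no member was called for P, C or P/C against untreated cells, where 0.491%, 0% and 0.622% of the tested probe sets were called in either direction. The smallest adjusted p among members were 0.157, 0.9995 and 0.185. The 8 h replicate numbers were taken to pair the arrays, and with the number as a block EIF5 208706_s_at fell after P (−1.42, adjusted p 0.0123) and after P/C (−1.31, adjusted p 0.015). EIF1AX 201018_at fell after P/C (−1.45, adjusted p 0.034) and had −1.25 after P (adjusted p 0.0636). Leaving out either P/C array at 24 h did not change these log2 fold changes. It only took the difference between those arrays out of the spread shared by all groups. For 8 h both choices are the same fit, and they are no separate support for the calls.

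The effect of piroxicam at 8 h was also estimated over the 4 arrays with it and the 4 without, as the mean of P against untreated and P/C against C. With 1.11% of tested probe sets called lower, 2 members were called. EIF5 208706_s_at read 9.20 and 9.73 in untreated cells, 9.52 and 9.64 after C, 8.17 and 7.91 after P, and 8.22 and 8.09 after P/C. Every array with piroxicam was below every array without, and the fall was −1.42 (SE 0.28, adjusted p 0.0082), a call that held under all 31 alternatives.

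EIF1AX 201018_at read 7.20 and 8.17 untreated, 7.77 and 7.53 after C, 6.59 and 6.28 after P, and 5.99 and 6.48 after P/C. Here too the groups did not overlap, though the share of all tested probe sets that separate in this way was not counted. The fall of EIF1AX 201018_at was −1.33 (SE 0.31, adjusted p 0.0219). Its adjusted p was 0.0521 to 0.0979 without untreated replicate 3, P replicate 3, either C array or P/C replicate 1. Without P/C replicate 3, which leaves a single P/C array at 8 h, EIF3J 208264_s_at had −1.10. EIF2S1 201143_s_at and 201142_at had −0.77 (adjusted p 0.0204) and −0.67 (adjusted p 0.049), and EIF5 208705_s_at −0.82 (adjusted p 0.043), all under the fold limit. EIF4E and EIF5B had no member with an unadjusted p under 0.05 in this contrast.

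The 24 h and 8 h responses were set against each other by the difference between their contrasts. For P no member was called, and the smallest adjusted p was 0.19. The value for EIF1AX 201018_at was −2.13. Leaving out either P/C array at 24 h did not change this value and only lowered the spread shared by all groups. For P/C no member was called either, with a smallest adjusted p of 0.276. Over all tested probe sets 0.196% were called for P and 0.0654% for P/C. Between untreated cells at 24 h and 8 h no member was called, beside 0.0981% of tested probe sets, with a smallest adjusted p of 0.82.

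The effect of cisplatin in cells given piroxicam was read at 24 h from P/C against P. The effect of piroxicam in cells given cisplatin was read from P/C against C. No member was called in either comparison, where 0.164% and 0.0981% of tested probe sets were called. Whether either drug altered the effect of the other was not tested, since that also needs the untreated cells. In P/C against P, EIF2S1 201143_s_at was higher by 1.08 (SE 0.23) and EIF1AX 201018_at by 1.62 (SE 0.40), both with an adjusted p of 0.0538. The result depended on the P/C array. Leaving out either one leaves a single P/C array, so only effect sizes are given for it. Without P/C replicate 3, EIF2S1 201143_s_at was higher by 1.51 and EIF1AX 201018_at by 2.45. Without P/C replicate 1 these values were 0.64 and 0.78. Both probe sets were called without C replicate 1 at 24 h (adjusted p 0.0244 and 0.0395), where 76 of 3057 tested probe sets were called higher. That choice left both log2 fold changes as they were and only lowered the spread shared by all groups. In the comparison of probe sets of a gene, 0.126% of pairs differed, and the difference between EIF2S1 201143_s_at and 201144_s_at was 1.07 (SE 0.18, adjusted p 0.0379). In P/C against C the smallest adjusted p among members was 0.147. Without P/C replicate 1, which leaves a single P/C array, EIF1AX 201018_at had −1.92 and EIF5 208706_s_at −1.54.

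Genes that act with these factors were read from a list of 36 initiation partners and regulators, of which 29 were on the array and 17 were tested. In the 24 h comparisons with untreated cells none was called. After P at 24 h 3 of the 17 had an adjusted p within the limit and a smaller fold. They were DHX29, a scanning helicase (−0.9995, adjusted p 0.0162), NCBP1, the nuclear cap-binding protein (−0.88, adjusted p 0.014), and DDX3X, a helicase (−0.76, adjusted p 0.0131). At 8 h DDIT4, an inhibitor of the mTOR pathway that controls 4E-BP1, was the 1 gene called, with 5.15 (SE 0.46) after P and 5.37 (SE 0.46) after P/C. Untreated cells at 24 h were above those at 8 h in DDIT4 by 4.95. Of 11 elongation and release factors 7 were on the array and 2 tested, with none called. ETF1, the release factor, had −0.67 after P at 24 h (adjusted p 0.0347).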

How the data were processed

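RNA of MSTO-211H cells had been hybridised to 18 HGU133A arrays. The deposited log2 signals had been made by the authors with GCRMA (version not given in the sources used here), which corrects background and normalizes between arrays. No column was left unused. The number of arrays limits the precision.

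In the platform annotation 19071 probe sets had 1 symbol, 1043 several and 2169 none. Members and lists were chosen with earlier results of these data known. After 68 control probe sets were removed, the filter kept probe sets whose interquartile range reached 0.25 and whose signal reached 100 (log2 6.64) on 25% or more of the arrays. A linear model with a mean for each group was fitted with limma 3.58.1 (R 4.3.3; 10 residual and 5.76 prior degrees of freedom), two-sided, with Benjamini-Hochberg adjustment over the 3057 probe sets. The fit was tested on simulated data. Per-array values were given for the members called, up to 10 in each direction at 24 h after P and P/C and up to 5 elsewhere, and values for the 3 of smallest p where none was called; a gene was represented by its brightest tested probe set. Members that did not call but lay against the rest (EIF1, EIF4EBP1, EIF3A) were chosen after their values were seen.

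Replicate numbers come from the labels, and no source used here says what they share. At 8 h, deviations of same-numbered arrays from their group means correlated between every 2 groups (6 distinct values, 0.20 to 0.66, above the limit of 0.1; with 2 arrays a group both numbers give the same value), so they were taken to pair the arrays. At 24 h the 12 correlations were −0.22 to 0.39 and no pairing was taken. Alternatives were other filters, quantile normalization, median centring, array weights, fewer arrays in the fit, replicate blocks, an intensity trend with a robust prior, no fold limit, and each array left out.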

Additional observations from a re-analysis of the deposited data

How the results depend on the processing

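No called result reversed its direction under any alternative run. Counts over all tested probe sets moved too, so a call lost or gained is not a trait of the members alone. Those called lower after P at 24 h were 349 in the main fit, 239 under quantile normalization and 223 under median centring. The 9 falls after P at 24 h were 6 to 9 with each array left out, and 3 counted over genes by their brightest probe set. With no fold limit 5 members were higher after P, beside 182 of 3057 tested probe sets. With the fold limit kept, 0 were higher in the main fit and 0 to 1 with each array left out.

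For P/C at 24 h the 4 falls were 2 without a filter, of which 1 was among the 4 and 1 was the dim EIF5B 214314_s_at. They were 2 with the arrays of the time point only and 1 over genes by the brightest tested probe set. They were 0 with array weights, with only the arrays of the comparison, or with a replicate block among 24 h arrays. Over all tested probe sets the 129 called lower became 71 with the arrays of the time point only and 41 with array weights. They became 15 with only the arrays of the comparison and 1 with the block. With each array left out the members called lower after P/C were 0 to 4. Members called higher after P/C numbered 2 under quantile normalization or with no fold limit, 1 under median centring or with C replicate 1 and P/C replicate 1 at 24 h both left out, and 0 to 1 with each array left out.

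The 2 falls for piroxicam at 8 h were 1 without a filter, beside 97 of 22215 probe sets called lower. They were 1 with a signal limit of 200, beside 19 of 1982, and 5 with no fold limit, beside 113 of 3057. With each array left out the falls of members were 1 to 3. With a replicate block among 8 h arrays, 1 member fell after P and 2 after P/C at 8 h, and the 2 falls for piroxicam stayed 2. Over all tested probe sets 36, 48 and 39 were called lower in these comparisons. The replicate block over all arrays gave 8 falls after P and 4 after P/C at 24 h. With array weights 1 member fell after P at 8 h, beside 18 of all tested probe sets. With the arrays of the time point only 1 fell after P and 1 after P/C at 8 h, beside 6 and 14 of all tested probe sets. With each array left out the members called lower after P and P/C at 8 h were 0 to 1 and 0 to 2. For C at 24 h, 2 members fell with array weights, beside 90 of all tested probe sets. Without C replicate 1, 2 fell as well, beside 81.

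In P/C against P at 24 h 1 member was higher with a signal limit of 200, beside 22 of 1982 tested probe sets. With the intensity trend and robust prior 1 was higher, beside 39 of 3057. In P/C against C members were called lower only in fits that kept a single P/C array at 24 h. For P at 24 h minus 8 h, 1 was lower with array weights, beside 42 of all tested probe sets. With only the arrays of the comparison 2 were lower, beside 46.

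The median log2 fold change of all 81 members after P at 24 h (−0.11) was −0.033 under quantile normalization, 0.099 under median centring, and −0.128 to −0.062 with each array left out. After P/C (0.03) it was 0.085 under median centring and −0.047 to 0.034 with each array left out. Median centring adds the same constant to every probe set of a contrast (0.21 after P, 0.058 after P/C), so its shifts are those of the whole array, whose median it moved to 0.239 and 0.059. The cause of the other shifts was not tested. The 23 dim members were not tested in the filtered fit, and without a filter 1 of them was called.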
